A study of Homo sapiens with 20 samples.

Results

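RNA from MDA-MB-468 cells at 48 h of EGF-treatment was set against the mean of the time points on either side, 24 h and 72 h, to find genes whose expression dipped or peaked at 48 h. The comparison used 12 of the 20 libraries in the series, 4 biological replicates at each of the 3 times. The untreated control and 12 h libraries served to place the levels and entered the shared filter, scaling and estimate of spread. MDA-MB-468 is an epithelial, triple-negative breast cancer cell line with abundant EGF receptor, so all groups come from 1 cell line, which the methods state was not authenticated after delivery. Every group was serum-starved, EGF was supplied at 50 ng/mL, and the groups differed only in when it was added before a common harvest. The replicates are labelled as biological, with no statement of whether they were separate cultures, so p-values measure the spread between these samples, which may in part be technical.

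EGF binds its receptor, the tyrosine kinase EGFR, and signals through RAS to the kinase ERK. ERK induces immediate early transcription factors of the FOS, JUN and EGR families, and these in turn raise genes for further receptor ligands and for inhibitors that act back on the pathway. In epithelial cells prolonged EGF can also drive an epithelial to mesenchymal transition (EMT), with loss of cell adhesion and a rise in mesenchymal and matrix genes.

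The measurement is an estimated read count per gene, given below as CPM, the count scaled to a fixed library total after TMM scaling, with the SD over 4 libraries. Total counts were 16527104 to 24098943 at 48 h, 16120115 to 21419262 at 24 h and 15611961 to 25856953 at 72 h, with means of 20141800 at 48 h and 19053400 over the other 8 libraries (exact permutation test, two-sided, p = 0.604, where 0.0020202 is the smallest p that 495 splits allow). Genes with at least 1 count averaged 23382 at 48 h and 22635 at the neighbouring times (exact permutation test, p = 0.0869). Both tests take the 8 neighbouring libraries as 1 group, though genes detected were 21830 to 22548 at 24 h and 22675 to 24136 at 72 h. The 8 epithelial markers were all present, and their summed level was 7280 to 8083 CPM at 48 h, 11142 to 13833 CPM at 24 h and 8332 to 9107 CPM at 72 h. Of these 8, 6 were lower at 48 h than the mean of the neighbours, and in bulk RNA fewer cells of a type and less RNA per cell cannot be told apart. Of 24 markers of other cell types, 2 had no count in any library, 17 stayed under 1 CPM in every library, and their summed level was 37.1 to 44.6 CPM at 48 h, 34.9 to 39.6 CPM at 24 h and 49.9 to 55.6 CPM at 72 h, and of the 8 tested 2 were higher and 1 lower. The library EGF 24 h replicate 1 leaned towards the 48 h levels, being the lowest of the 4 at 24 h in 75% of the dips described below against 30.1% of all genes tested, and the highest in 62.9% of the peaks against 28.6%. Without it, the counts of peaks and dips were 1595 and 1420 in place of 1531 and 1361. EGF 72 h replicate 4 leaned less, as the lowest at 72 h in 40.7% of the dips against 22.6% of all genes, and the highest in 35.0% of the peaks against 24.0%. For EGF 72 h replicate 3 these shares were 30.7% against 23.3% and 35.9% against 22.6%.

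Of 16522 genes tested, 7514 differed at 48 h from the mean of 24 h and 72 h (edgeR's quasi-likelihood F-test, Benjamini-Hochberg adjusted). These were 3917 higher genes (23.7% of those tested) and 3597 lower genes (21.8%). More than 1.5-fold from the mean of the neighbours were 1788 higher and 1004 lower genes, and more than 2-fold were 730 and 402. A gene that only climbs or only falls over time can also differ from that mean, so each called gene was asked to differ from 24 h and from 72 h in the same direction. By that stricter test 1531 genes peaked at 48 h (9.27% of those tested) and 1361 dipped (8.24%). In 1351 of the peaks and 1184 of the dips, all 4 libraries at 48 h lay beyond all 8 libraries of the neighbouring times. The other 4622 called genes comprised 532 whose mean at 48 h lay between those at 24 h and 72 h, and 4090 whose mean lay outside both without passing on both sides. The balance of directions rested on the scaling. With library size alone, 5645 genes were higher and 2135 lower, which is 72.6% higher in place of 52.1%, and the median over all genes moved by 0.12 on the log2 scale. Just inside the threshold were AC136944.2, with a log2 difference of -0.84 and an adjusted p of 0.0499, and AC040970.1, with a difference of 0.55. Just outside it were EFCAB14 at -0.12 and OST4 at -0.13, both with an adjusted p of 0.0501 (edgeR).

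The untreated control was outside the contrasts that chose dips and peaks, and its level placed them. Its libraries did enter the filter, the scaling and the estimate of spread. Without control replicate 2 there were 1655 peaks and 1507 dips. Among the 1361 dips, the means at 24 h and 72 h were both above the control in 1278 (93.9%), against 39.3% of all genes tested. In 963 dips (70.8%) the 48 h mean then lay between the control and the neighbours, and in 315 it reached the control or fell below it. The median dip stood 0.85 above the control on the log2 scale at 24 h, 0.23 above at 48 h and 0.75 above at 72 h. Peaks had the opposite form. Both neighbours were below the control in 1364 of the 1531 peaks (89.1%), against 40.5% of all genes. In 870 peaks (56.8%) the 48 h mean then lay between the control and the neighbours, and in 494 it reached the control or rose above it. The median peak stood at -0.84 relative to the control at 24 h, -0.08 at 48 h and -0.66 at 72 h. In 33 dips both neighbours were already below the control and 48 h was lower still, and in 65 peaks both were above it and 48 h was higher still. Over all genes tested, the medians against the control were -0.01, 0.01 and -0.01 at the 3 times. Because the 3 times share 1 control group, these values describe levels and are not separate tests. Picking genes with 48 h below both neighbours itself favours neighbours above another group, and the reverse holds for peaks. The shares over all genes are therefore not a matched baseline.

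**Figure D1:**
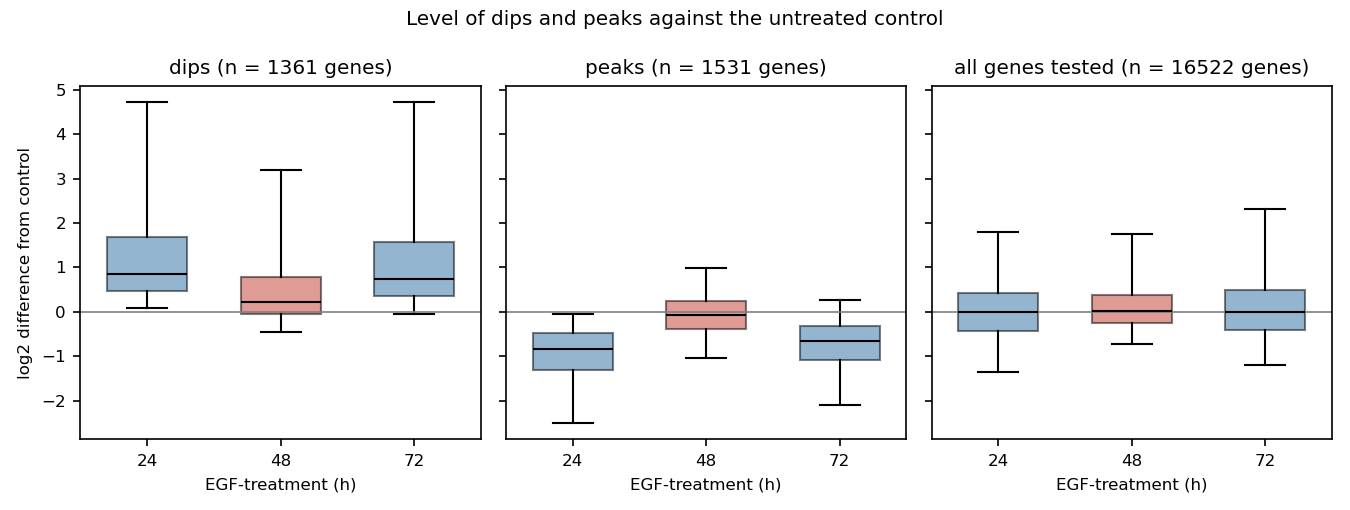
Log2 difference from the untreated control at each of 3 times after EGF (24, 48 and 72 h) for the 1361 dips, the 1531 peaks and all 16522 genes tested. Boxes give the median and quartiles over genes and whiskers the 5th and 95th percentiles; dips return towards the control from above at 48 h, with a median of 0.23, and peaks from below, with a median of -0.08.

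The 12 largest dips included serpins, a keratin and a plasminogen activator. SERPINB2, which encodes plasminogen activator inhibitor 2 (chromosome 18, 63871692 to 63903890, plus strand, hg38), was at 25.1, 62.2, 59.0 and 83.2 CPM at 24 h, 5.60, 3.86, 6.65 and 6.48 CPM at 48 h, and 46.7, 41.4, 30.7 and 32.4 CPM at 72 h. Its 4 libraries at 48 h lay under all 8 neighbouring ones, a fall by 3.03 (SE 0.28) on the log2 scale with an adjusted p of 1.81e-07 (edgeR). PLAT, the tissue-type plasminogen activator (chromosome 8, 42175233 to 42207724, minus strand), was at 23.7, 36.1, 42.1 and 41.7 CPM at 24 h, 5.60, 3.91, 6.08 and 5.98 CPM at 48 h, and 58.3, 51.9, 47.6 and 40.3 CPM at 72 h. It fell by 2.96 (SE 0.16), with no overlap between 48 h and either neighbour. Control libraries held 0.21 to 0.40 CPM of PLAT, so that its 48 h level remained above the control.

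Keratin 6A, a keratin of activated and hyperproliferative epidermis, gave the smallest adjusted p of the largest dips. KRT6A (chromosome 12, 52487174 to 52493257, minus strand) was at 541, 686, 623 and 719 CPM at 24 h, 61.7, 65.4, 76.9 and 77.0 CPM at 48 h, and 269, 225, 219 and 213 CPM at 72 h. The groups did not overlap, and the fall by 2.46 (SE 0.094) had an adjusted p of 7.57e-15 (edgeR). Reads of KRT6A may be shared with its near-identical copies KRT6B and KRT6C. The mean at 12 h was 1118 CPM against 2.58 CPM in the control, so that the 48 h mean of 70.2 CPM stayed above the control.

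SERPINB5 (maspin), SERPINB3 and SERPINB4 (the squamous cell carcinoma antigens) lie with SERPINB2 in the serpin cluster on chromosome 18 and dipped with it. SERPINB5 was at 266, 394, 426 and 460 CPM at 24 h, 57.9, 50.2, 68.3 and 64.3 CPM at 48 h, and 216, 207, 169 and 165 CPM at 72 h, a fall by 2.17 (SE 0.12). SERPINB4 fell by 2.37 (SE 0.18) and SERPINB3 by 2.21 (SE 0.17), and these near-identical neighbours may share reads. All 4 serpins were separated from both neighbouring times in every library.

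CLMP, a cell adhesion molecule of tight junctions, had level neighbours. It was at 28.3, 28.4, 29.6 and 30.3 CPM at 24 h and 28.3, 29.9, 28.4 and 27.1 CPM at 72 h, and between them at 8.15, 3.62, 6.61 and 6.12 CPM. This fall by 2.24 (SE 0.13) had an adjusted p of 5.49e-12 (edgeR). The cytokine LIF was at 15.8, 48.6, 47.1 and 55.1 CPM at 24 h, 9.75, 5.48, 6.88 and 5.85 CPM at 48 h, and 42.9, 32.8, 21.1 and 32.4 CPM at 72 h. HAS3, a hyaluronan synthase, fell by 2.41 (SE 0.18) and CEACAM5, the carcinoembryonic antigen, by 2.56 (SE 0.19). The adaptor genes SHC4 and SH2D1B fell by 2.68 (SE 0.18) and 2.50 (SE 0.21).

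Promoter sequence was read for the genes with the largest dips. The DNA motif bound by AP-1, the dimer of FOS and JUN proteins, was searched as TGAGTCA and its reverse complement TGACTCA in the 250 bases before each start listed by RefSeq (GRCh38.p14). It stood in 4.61% of 1562 windows of genes with a dip, 2.50% of 1679 windows of genes with a peak, 3.25% of 16438 windows of all genes tested and 4.20% of all 35116 windows. Of the 12 largest dips, 8 had a window, and the 2 with a match are shown from base 250 to base 11 before the start, the motif in capitals. The SHC4 sequence is at chr15:48963930-48964169 and the SH2D1B sequence at chr1:162412147-162412386, both on the minus strand, and the matches begin 81 and 107 bases before the start.
SHC4: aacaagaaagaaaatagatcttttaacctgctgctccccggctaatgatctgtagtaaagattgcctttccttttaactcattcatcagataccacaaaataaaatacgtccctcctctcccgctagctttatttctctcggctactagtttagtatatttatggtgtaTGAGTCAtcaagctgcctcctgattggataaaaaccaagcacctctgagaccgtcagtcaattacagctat
SH2D1B: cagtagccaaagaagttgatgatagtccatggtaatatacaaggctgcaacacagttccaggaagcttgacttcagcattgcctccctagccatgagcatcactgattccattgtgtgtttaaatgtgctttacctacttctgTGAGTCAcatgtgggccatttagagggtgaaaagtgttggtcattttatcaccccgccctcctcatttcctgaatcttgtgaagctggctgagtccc
A match of letters does not show that the site was bound in these cells.

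Most of the 12 largest peaks had their highest mean in untreated cells, and at 48 h stood between that level and their neighbours. The exceptions were DDC and AC011294.1, whose means were highest at 48 h. METTL7A, a membrane-associated methyltransferase (chromosome 12, 50923472 to 50932517, plus strand), was at 3.26, 0.90, 0.83 and 0.98 CPM at 24 h, 13.2, 13.4, 10.9 and 12.8 CPM at 48 h, and 2.58, 3.87, 3.57 and 3.26 CPM at 72 h. Its 48 h libraries lay above all 8 neighbouring ones and below the control at 20.6 to 28.5 CPM. The rise of 2.48 (SE 0.20) on the log2 scale had an adjusted p of 1.85e-09 (edgeR).

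ATP6V1B1, a subunit of the proton pump V-ATPase, was at 4.70, 2.94, 3.14 and 3.76 CPM at 24 h, 24.9, 25.7, 17.6 and 20.4 CPM at 48 h, and 6.47, 5.29, 6.53 and 7.92 CPM at 72 h. It rose by 2.17 (SE 0.12) without overlap, though 62.4% of its exon bases lie under another gene on the same strand. ALDH3B2, an aldehyde dehydrogenase, was at 89.9, 55.1, 48.0 and 43.4 CPM at 24 h, 321, 370, 253 and 285 CPM at 48 h, and 112, 103, 130 and 129 CPM at 72 h. Its rise of 1.88 (SE 0.14) left it under the control, whose libraries ran from 501 to 670 CPM. SELENOP, a secreted carrier of selenium, averaged 4.11 CPM ± 1.43 at 24 h, 15.8 CPM ± 1.90 at 48 h and 4.80 CPM ± 0.77 at 72 h (SD, n = 4), against 87.5 CPM ± 16.2 in the control.

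RERG, a growth-inhibitory GTPase regulated by estrogen, was at 16.4, 10.8, 10.5 and 10.4 CPM at 24 h, 41.1, 39.4, 50.9 and 51.6 CPM at 48 h, and 15.1, 16.8, 18.2 and 20.9 CPM at 72 h. It rose by 1.65 (SE 0.12), ELAPOR1 by 1.66 (SE 0.10), the protease CAPN13 by 1.64 (SE 0.086) and CLCA2, a chloride channel regulator, by 1.58 (SE 0.096). DDC, which makes dopamine and serotonin from their precursors, was at 3.16, 1.86, 1.73 and 1.85 CPM at 24 h, 10.9, 9.24, 11.7 and 12.4 CPM at 48 h, and 6.36, 6.26, 6.48 and 6.64 CPM at 72 h. At 48 h its mean of 11.1 CPM ± 1.36 stood beside 11.0 CPM ± 1.40 in the control. The pseudogene CPHL1P rose by 1.94 (SE 0.11), and SPC24, a subunit of the kinetochore NDC80 complex, by 1.58 (SE 0.12).

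**Figure D2:**
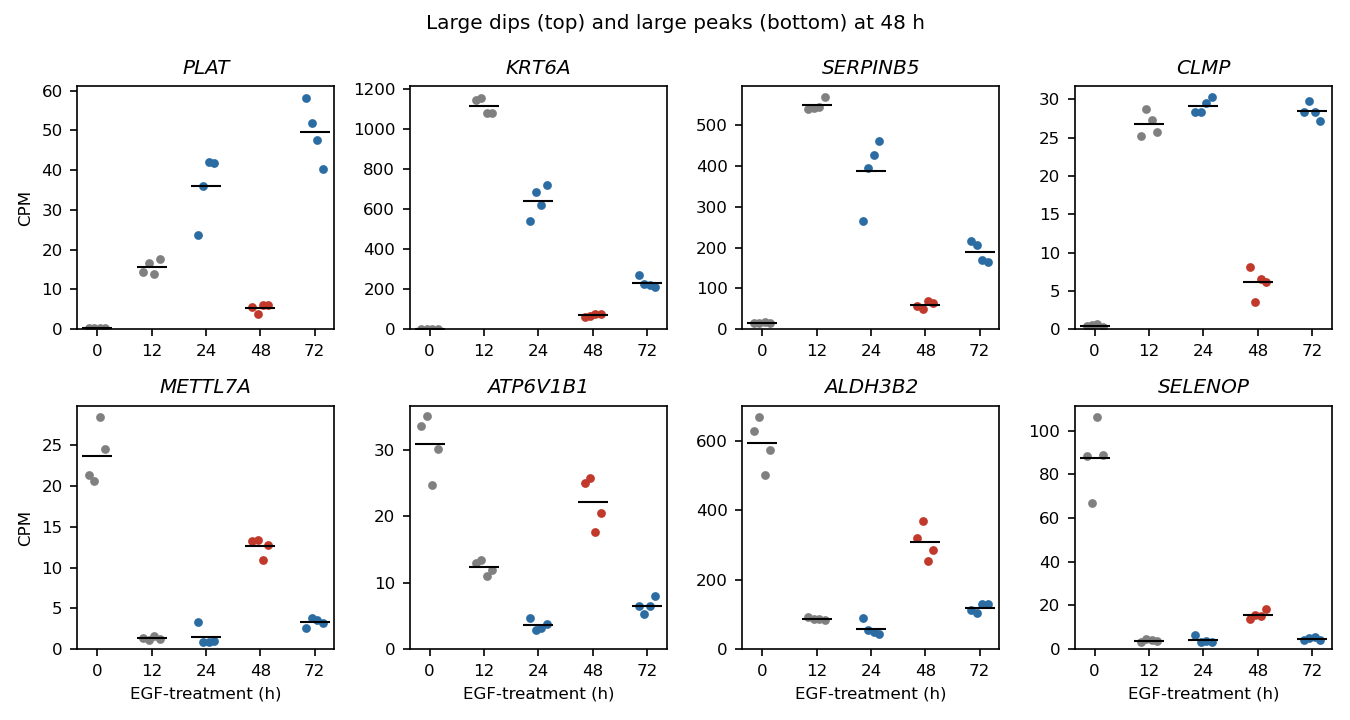
CPM after TMM scaling in each of the 20 libraries for 4 genes with a large dip and 4 with a large peak at 48 h, by hours of EGF-treatment (0 is the untreated control). Points are libraries, dashes are group means, and 48 h is in red; KRT6A fell to a mean of 70.2 CPM at 48 h, and METTL7A rose to 12.6 CPM.

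In few of the dips and peaks were all 4 libraries at 48 h apart from every other library. All 4 libraries at 48 h lay above the 16 others in 258 peaks (1.56% of genes tested) and below them in 105 dips (0.636%). The second number was 84 to 153 when each library in turn was left out. S100A7 (psoriasin), an antimicrobial protein of the stressed epidermis (chromosome 1, 153457744 to 153460701, minus strand), was at 132, 146, 164 and 164 CPM at 48 h. The control was at 286 to 403 CPM, and the rest at 655 to 778 CPM at 12 h, 448 to 583 CPM at 24 h and 316 to 374 CPM at 72 h. It fell by 1.46 (SE 0.091) below the mean of the neighbours, with an adjusted p of 1.75e-11 (edgeR).

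S100A7A, a close copy that may share reads with S100A7, fell by 1.31 (SE 0.12), and S100A8, a subunit of calprotectin, was at 24.9, 29.6, 23.0 and 24.7 CPM at 48 h against 47.6 CPM or more in every other library. KRT23, a type I keratin, was at 183, 168, 197 and 188 CPM, below the control at 284 to 333 CPM, and fell by 1.09 (SE 0.069). HSD17B2, which inactivates estradiol and testosterone, was at 13.5, 13.5, 15.7 and 13.6 CPM at 48 h, 18.7, 30.0, 31.8 and 34.3 CPM at 24 h, and 34.6, 34.2, 30.9 and 33.1 CPM at 72 h. The apoptosis inhibitor BCL2 was at 6.26, 6.26, 7.83 and 7.34 CPM at 48 h, under the control at 8.39 to 8.79 CPM and under 10.8 CPM, the lowest of the 24 h and 72 h libraries. These genes thus had their lowest level of the series at 48 h.

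Among genes highest at 48 h was SCD, the desaturase that makes monounsaturated fatty acids. It was at 4933, 4983, 4493 and 4778 CPM at 48 h, 2017, 1739, 1834 and 1674 CPM at 24 h, and 2607, 2547, 2912 and 2712 CPM at 72 h, and no control library passed 3588 CPM. The rise of 1.12 (SE 0.059) had an adjusted p of 1.72e-12 (edgeR). UGT1A6, a glucuronosyltransferase that shares exons with the other UGT1A genes, was at 35.5, 36.1, 34.2 and 40.5 CPM at 48 h and at 26.9 CPM or less elsewhere. BFSP1, a cytoskeletal protein best known from the lens, rose by 1.37 (SE 0.093), as did ZSCAN4, a zinc finger protein of early embryonic cells, with an SE of 0.15.

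Other genes above all 16 libraries were long noncoding RNAs (lncRNAs). ZBED5-AS1 was at 18.6, 19.1, 18.0 and 18.8 CPM at 48 h, 5.19, 4.86, 5.51 and 4.54 CPM at 24 h, 11.3, 11.1, 11.0 and 12.6 CPM at 72 h and 13.7 to 17.3 CPM in the control. It rose by 1.29 (SE 0.075), DDX59-AS1 by 1.31 (SE 0.097) and AC011294.1 by 1.62 (SE 0.15). DDX59-AS1 averaged 3.76 CPM at 24 h, 17.7 CPM at 48 h and 13.6 CPM at 72 h. AC011294.1 averaged 1.35, 8.49 and 5.65 CPM at these times, so both differed less from 72 h than from 24 h. Of 2403 lncRNA genes tested, 706 were higher and 191 lower, with a median of 0.23 on the log2 scale, while of 13365 protein-coding genes 3071 were higher and 3343 lower, with a median of -0.01. lncRNA genes held 1.53% ± 0.013 of counts at 48 h and 1.33% ± 0.15 at the neighbouring times (exact permutation test, p = 0.0222, or 0.111 after Benjamini-Hochberg adjustment over 5 library measures). That test takes the neighbouring times as 1 group, and the SD of 0.15 holds the difference between them. By time, the share was 1.16 to 1.23% at 24 h, 1.52 to 1.55% at 48 h and 1.45 to 1.48% at 72 h, so 48 h lay close to 72 h. Whether this share has a part in the peaks of single lncRNAs was not tested.

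**Figure D3:**
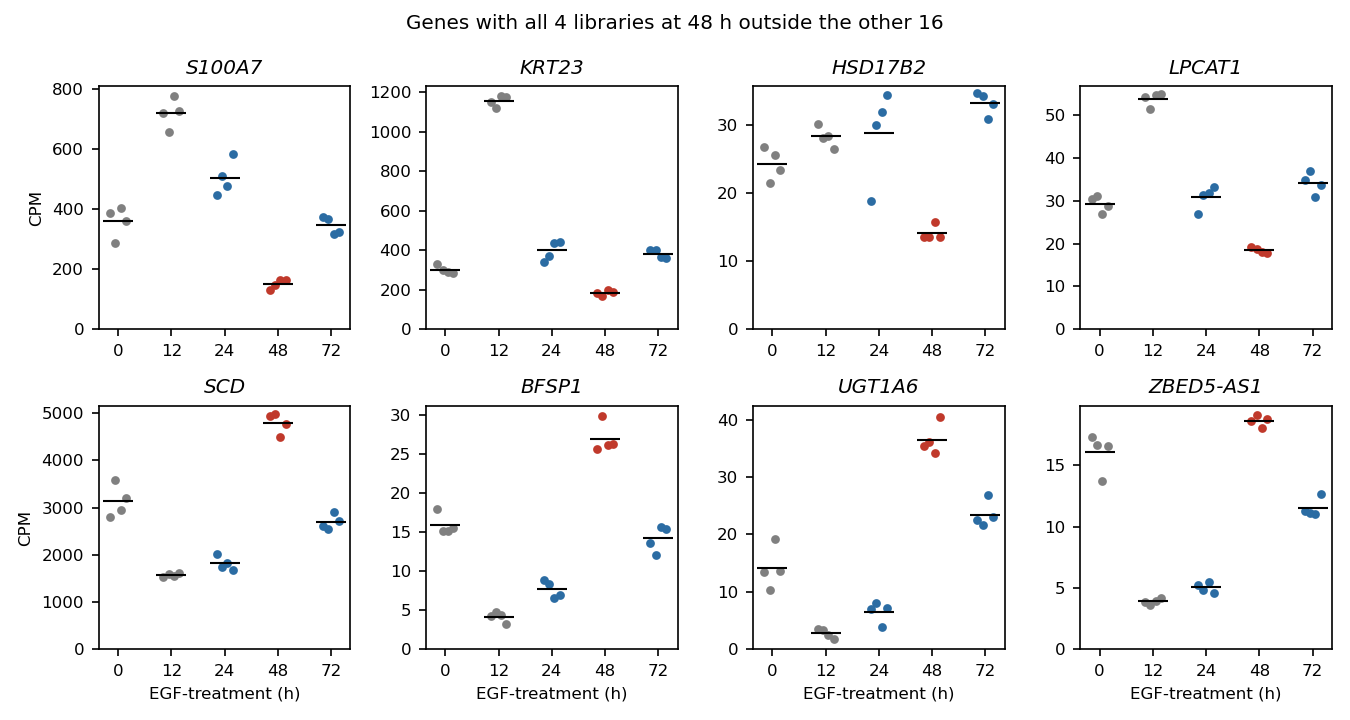
CPM after TMM scaling in each of the 20 libraries for 8 genes whose 4 libraries at 48 h (red) lie below all 16 others (top) or above them (bottom), by hours of EGF-treatment. Points are libraries and dashes group means; S100A7 fell to 132 to 164 CPM and SCD rose to 4493 to 4983 CPM.

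Genes of EGF signaling were mostly lower at 48 h. Of 11 EGF receptor family and ligand genes tested, 6 were lower and 3 higher at 48 h, beside 21.8% lower and 23.7% higher over all genes. AREG (amphiregulin), a membrane-bound EGFR ligand released by cleavage, was at 31.4, 53.9, 60.3 and 67.6 CPM at 24 h, 16.5, 12.0, 19.0 and 17.6 CPM at 48 h, and 115, 94.4, 72.8 and 72.7 CPM at 72 h. It fell by 2.08 (SE 0.18) with an adjusted p of 3.68e-08 (edgeR). HBEGF, the heparin-binding ligand, was at 9.29, 12.0, 15.1 and 19.1 CPM at 24 h, 5.82, 4.65, 7.41 and 6.53 CPM at 48 h, and 23.4, 17.8, 17.4 and 16.3 CPM at 72 h, a fall by 1.40 (SE 0.15). Neither ligand overlapped its neighbours at 48 h.

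TGFA, another ligand, fell by 0.76 (SE 0.089) and EPGN (epigen) by 1.22 (SE 0.15), the latter with 24 h and 48 h libraries that overlapped. EREG (epiregulin) was lower than the mean of its neighbours by 0.82 (SE 0.15), but as a dip its adjusted p was 0.0778 (edgeR). The receptor EGFR was lower than the mean of its neighbours by 0.27 (SE 0.058). It averaged 7788 CPM ± 886 at 24 h, 5607 CPM ± 420 at 48 h and 5867 CPM ± 240 at 72 h, and its 48 h and 72 h libraries overlapped. ERBB2, the preferred partner of other ErbB receptors, was at 15.97, 12.7, 10.3 and 9.42 CPM at 24 h, 19.5, 21.4, 15.3 and 16.7 CPM at 48 h, and 9.48, 9.33, 12.3 and 13.1 CPM at 72 h, a rise of 0.65 (SE 0.13) with 1 overlapping library at 24 h.

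Of 19 immediate early and AP-1 genes, 15 were lower and 1 was higher, with a median of -0.33, and 9 dipped. FOSL1 (FRA1), an AP-1 subunit that ERK stabilizes, was at 44.6, 86.8, 99.8 and 97.2 CPM at 24 h, 27.5, 25.04, 26.8 and 23.2 CPM at 48 h, and 119, 83.6, 82.9 and 88.3 CPM at 72 h. It fell by 1.77 (SE 0.18), FOSB by 1.52 (SE 0.18) and the survival factor IER3 by 1.26 (SE 0.13). FOS was at 1.99, 2.30, 2.01 and 2.40 CPM at 48 h and at 2.79 CPM or more in all 16 other libraries. EGR3 also lay below all others, but at 0.08 to 0.18 CPM rests on few counts. JUN fell by 0.33 (SE 0.085) against the mean of its neighbours without a dip, since it was at 15.1 to 18.3 CPM at 24 h, 16.7 to 21.3 CPM at 48 h and 31.5 to 39.3 CPM at 72 h. MYC fell by 0.29 (SE 0.088), a call that ended with library size alone or without EGF 48 h replicate 2, where its adjusted p was 0.0559 (edgeR). EGR1 was the 1 gene of the list that was higher, by 0.32 (SE 0.12), and its call was lost without any of 9 libraries in turn.

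Of 18 EGF feedback inhibitors, 11 were lower, 1 was higher and 8 dipped, with a median of -0.46. DUSP6, the phosphatase that inactivates ERK, was at 30.5, 40.4, 43.9 and 45.6 CPM at 24 h, 13.9, 11.7, 15.8 and 13.2 CPM at 48 h, and 41.7, 36.7, 32.0 and 32.6 CPM at 72 h. The fall by 1.47 (SE 0.11) had an adjusted p of 1.53e-10 (edgeR). The phosphatase DUSP7 was at 25.2 to 42.5 CPM at 24 h, 9.34 to 13.7 CPM at 48 h and 27.0 to 34.7 CPM at 72 h, and DUSP5 fell by 1.47 (SE 0.14). These phosphatases were apart from their neighbours in every library.

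SPRY4, a Sprouty inhibitor of RAS signaling, was at 30.2, 47.0, 52.8 and 49.4 CPM at 24 h, 15.8, 13.0, 16.4 and 14.2 CPM at 48 h, and 45.2, 40.6, 32.9 and 36.6 CPM at 72 h. It fell by 1.49 (SE 0.12), SPRY2 by 1.32 (SE 0.10) and ERRFI1 (MIG6), which binds and blocks the EGFR kinase, by 1.31 (SE 0.13). LRIG1, which promotes the degradation of ErbB receptors, was the 1 higher gene, at 13.6 to 17.4 CPM against 9.44 to 13.1 CPM in the neighbours, a rise of 0.50 (SE 0.083). DUSP1, at 3.76 to 5.93 CPM at 24 h, 5.76 to 6.08 CPM at 48 h and 12.6 to 17.7 CPM at 72 h, was lower than the mean of its neighbours without a dip. DUSP10 and SOCS3 did not pass the test, with differences of -0.10 (SE 0.080) and -0.07 (SE 0.12), and both changed sign with library size alone. At 48 h the mean of DUSP6, 13.7 CPM, still exceeded its control mean of 5.36 CPM.

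**Figure D4:**
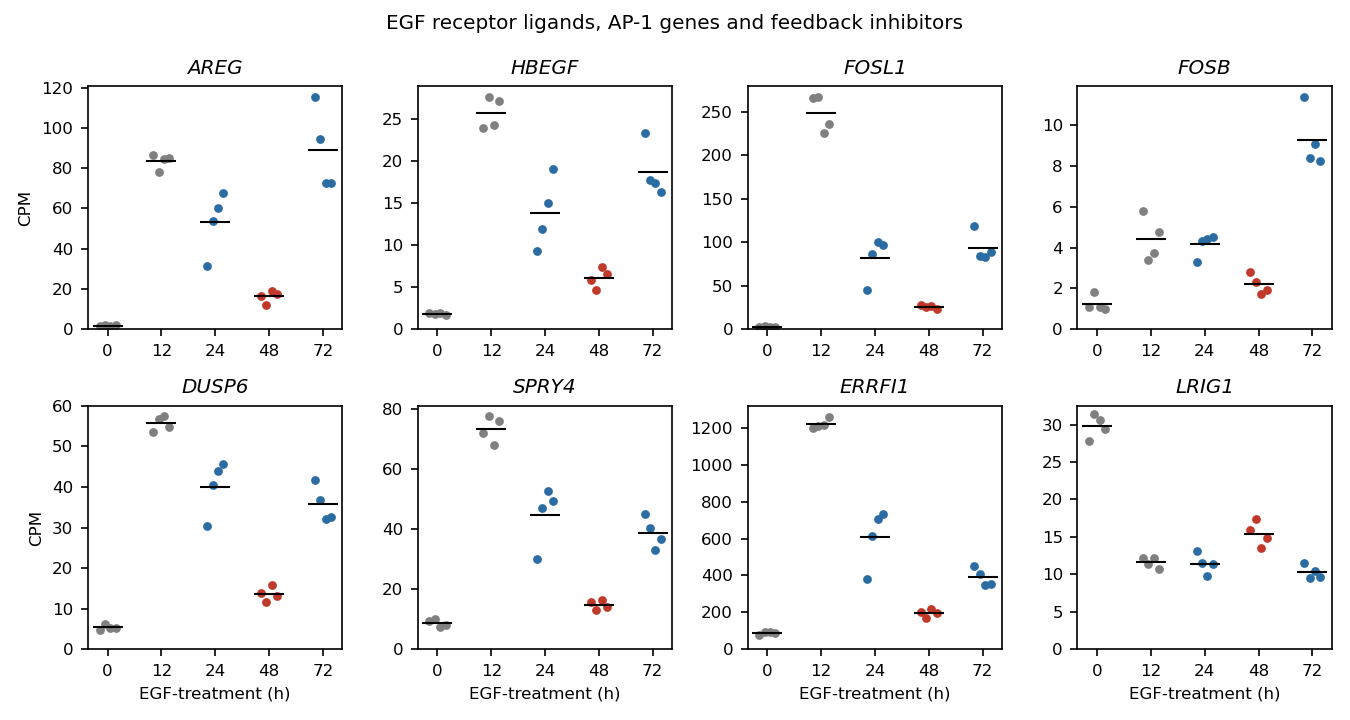
CPM after TMM scaling in each of the 20 libraries for the ligands AREG and HBEGF, the AP-1 genes FOSL1 and FOSB and the feedback genes DUSP6, SPRY4, ERRFI1 and LRIG1, by hours of EGF-treatment. Points are libraries, dashes group means and red marks 48 h; 7 of the genes dipped at 48 h, DUSP6 to a mean of 13.7 CPM, and LRIG1 peaked.

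Keratinocyte differentiation genes formed the list with the lowest median, -0.91. Of 32 tested, 25 were lower, 18 dipped and 1 was higher. The simple epithelial keratins KRT18 and KRT8, which pair in luminal cells, also dipped, whereas KRT19 was lower than the mean of its neighbours by 0.50 (SE 0.076) with an adjusted p of 0.273 as a dip (edgeR). KRT18 was at 2174, 2724, 2789 and 2912 CPM at 24 h, 860, 836, 823 and 823 CPM at 48 h, and 1624, 1445, 1326 and 1369 CPM at 72 h. Its fall by 1.23 (SE 0.075) returned it to the control range of 684 to 884 CPM, and KRT8 fell by 0.96 (SE 0.10). Among 19 luminal and secretory genes, 7 (36.8%) were higher and 5 (26.3%) lower, beside 23.7% and 21.8% over all genes tested. ESR1, the estrogen receptor, was at 5.38 to 6.21 CPM at 48 h against 2.62 to 4.00 CPM in the neighbours, a rise of 0.86 (SE 0.13), and MUC15, a membrane mucin, rose by 1.26 (SE 0.12) but as a peak had an adjusted p of 0.111 (edgeR). With scaling factors per gene taken from the deposited normalized values, the difference of ESR1 was 0.59 and the call was lost (adjusted p = 0.0589, edgeR).

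Of 20 EMT genes tested, 7 (35%) were lower and 2 (10%) higher, beside 21.8% and 23.7% over all genes tested. VIM (vimentin), the intermediate filament of mesenchymal cells, was at 372, 382, 396 and 383 CPM at 24 h, 107, 89.6, 117 and 102 CPM at 48 h, and 164, 165, 166 and 165 CPM at 72 h. It fell by 1.28 (SE 0.065), with an adjusted p of 9.87e-13 (edgeR). FN1 (fibronectin) fell by 1.21 (SE 0.093), with 78.3 to 115 CPM at 24 h, 59.8 to 80.3 CPM at 48 h and 237 to 285 CPM at 72 h, so that 24 h and 48 h overlapped. SNAI1, a repressor of E-cadherin, was among the higher genes, at 6.76, 6.99, 4.90 and 4.71 CPM at 48 h, 3.91, 3.50, 2.82 and 2.00 CPM at 24 h, and 3.58, 3.13, 4.02 and 4.28 CPM at 72 h, a rise of 0.78 (SE 0.17). GRHL2, which maintains the epithelial state, also rose, by 0.48 (SE 0.084), and with factors per gene the difference was 0.54 and the call was lost (adjusted p = 0.296, edgeR). The EMT list thus held members of opposite roles on both sides.

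Extracellular matrix and protease genes had a median of -0.78, with 15 of 24 lower, 11 dips and 3 higher. TNC (tenascin-C) was at 19.6, 22.0, 28.9 and 24.7 CPM at 24 h, 5.65, 5.48, 6.19 and 5.80 CPM at 48 h, and 21.9, 17.9, 18.6 and 18.1 CPM at 72 h, a fall by 1.88 (SE 0.13). F3 (tissue factor), the initiator of coagulation, fell by 1.38 (SE 0.20), while the collagen crosslinking enzyme LOXL2 rose by 0.67 (SE 0.092). Of 22 genes of NF-kB, interleukin-1 and chemokines, 13 were lower and 1 higher. The neutrophil chemoattractant CXCL8 was at 41.6, 102, 99.2 and 157 CPM at 24 h, 38.7, 30.1, 51.5 and 42.2 CPM at 48 h, and 202, 190, 128 and 138 CPM at 72 h, a dip with overlap at 24 h. CSF2, the growth factor GM-CSF, was called lower by 2.00 (SE 0.30) without a dip, because it was under 1 CPM at 24 h and at 48 h and at 5.19 to 7.40 CPM at 72 h.

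**Figure D5:**
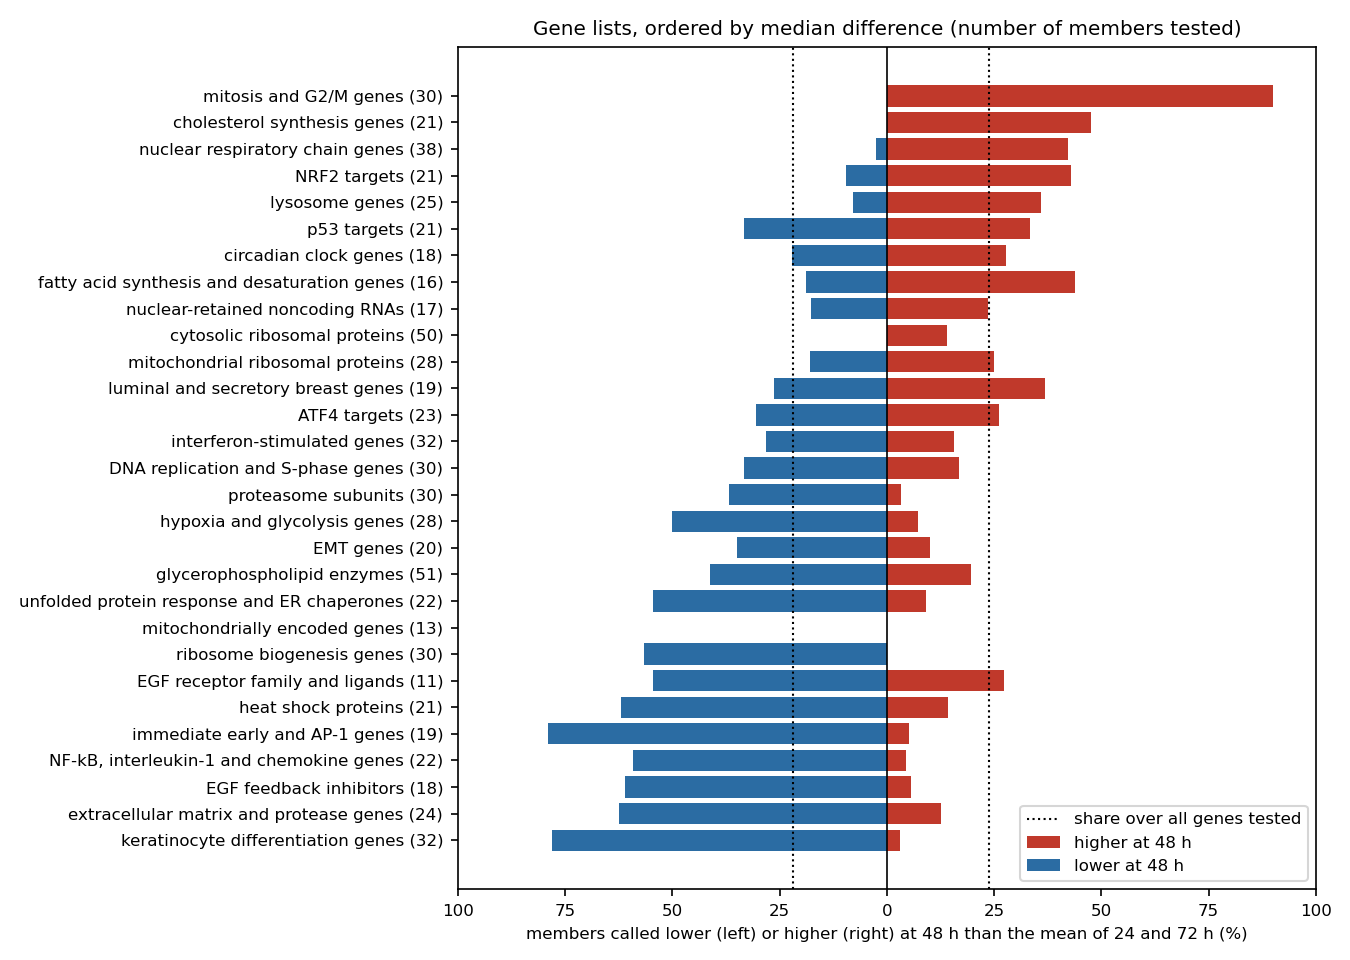
Share of the members tested (%) called lower (blue, left) or higher (red, right) at 48 h than the mean of 24 h and 72 h, for 29 gene lists ordered by median log2 difference, with the number tested in brackets. Dotted lines give the shares over all 16522 genes, 21.8% lower and 23.7% higher; mitosis and G2/M genes were higher in 27 of 30 and keratinocyte differentiation genes lower in 25 of 32.

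Mitosis and G2/M genes moved the other way. Of 30 tested, 27 were higher and 0 lower, with a median of 0.49, and 10 peaked. None was lower at an unadjusted p under 0.05 in edgeR or by DESeq2 either. The list's median against the control was -0.37 at 24 h, -0.26 at 48 h and -1.15 at 72 h. The 48 h level of the list thus lay nearer to 24 h than to 72 h, and most of the higher genes did not peak. HMMR, a spindle assembly factor, was at 44.5, 36.8, 31.2 and 35.6 CPM at 24 h, 67.3, 59.8, 73.4 and 80.4 CPM at 48 h, and 30.5, 32.0, 34.2 and 32.9 CPM at 72 h. It rose by 1.02 (SE 0.097) to the level of the control, 69.4 CPM ± 12.9, with an adjusted p of 1.48e-08 (edgeR). AURKB, the kinase of the chromosomal passenger complex, rose by 0.98 (SE 0.12) and its partner BIRC5 (survivin) by 0.92 (SE 0.073). The CCAAT box, searched as CCAAT and ATTGG in the same windows, stood in 86.2% of 29 windows of 25 genes of this list, 33.8% of the windows of genes with a peak and 32.9% of those of all genes tested.

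Of 30 genes of DNA replication and the S phase, 5 (16.7%) were higher and 10 (33.3%) lower, beside 23.7% and 21.8% over all genes tested. CCNE1 (cyclin E1), which drives entry into the S phase, was at 31.1, 40.7, 36.9 and 39.2 CPM at 24 h, 19.1, 14.9, 18.8 and 17.7 CPM at 48 h, and 35.8, 33.6, 33.8 and 31.2 CPM at 72 h. It fell by 1.00 (SE 0.081) and CCNE2 by 0.81 (SE 0.11), while RRM2, a subunit of ribonucleotide reductase, rose by 0.51 (SE 0.054). CDKN1A (p21), an inhibitor of cyclin-dependent kinases and a p53 target, was at 240, 337, 347 and 371 CPM at 24 h, 193, 159, 181 and 178 CPM at 48 h, and 562, 452, 431 and 439 CPM at 72 h, a fall by 1.14 (SE 0.10). Over 21 p53 targets, 7 (33.3%) were higher and 7 (33.3%) lower, beside 23.7% and 21.8% over all genes tested.

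Lipid genes were called in both directions. Of 51 glycerophospholipid enzymes, 21 (41.2%) were lower and 10 (19.6%) higher, with 11 dips and 4 peaks. Over all genes tested 21.8% were lower and 23.7% higher, so only the lower share of this list exceeded that of all genes. GPAT3, which acylates glycerol-3-phosphate at the start of the pathway, was at 20.9, 28.2, 32.2 and 34.8 CPM at 24 h, 4.82, 4.55, 7.07 and 6.30 CPM at 48 h, and 21.0, 22.5, 18.5 and 16.9 CPM at 72 h. The fall by 2.06 (SE 0.14) had an adjusted p of 3.95e-11 (edgeR). The lysophosphatidylcholine acyltransferases went in opposite directions. LPCAT1, which prefers saturated acyl chains, was at 19.2, 18.7, 18.0 and 17.9 CPM at 48 h and at 26.8 CPM or more in all 16 other libraries, a fall by 0.82 (SE 0.067). LPCAT3, which adds polyunsaturated chains, was at 32.3, 29.8, 30.8 and 27.9 CPM at 24 h, 71.4, 74.3, 62.6 and 71.5 CPM at 48 h, and 40.9, 40.6, 49.0 and 45.6 CPM at 72 h, a rise of 0.94 (SE 0.067).

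Of 21 cholesterol synthesis genes, 10 were higher and 0 lower, with 7 peaks and a median of 0.19, and none was lower at an unadjusted p under 0.05 in edgeR or by DESeq2. DHCR7, which makes cholesterol from its last precursor, averaged 494 CPM ± 7.59 at 24 h, 746 CPM ± 84.7 at 48 h and 530 CPM ± 35.3 at 72 h (SD, n = 4), a rise of 0.54 (SE 0.064). LSS, lanosterol synthase, rose by 0.49 (SE 0.085). Among 16 genes of fatty acid synthesis and desaturation, 7 (43.8%) were higher and 3 (18.8%) lower, beside 23.7% and 21.8% over all genes tested. SREBF1, the transcription factor that induces this pathway, was at 17.9, 16.7, 12.3 and 14.2 CPM at 24 h, 38.3, 34.4, 25.5 and 27.1 CPM at 48 h, and 18.3, 14.9, 15.5 and 19.2 CPM at 72 h. Its rise of 0.96 (SE 0.14) brought it to 31.3 CPM ± 6.08, beside a control of 40.4 CPM ± 11.7.

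Annotation limits some of these values. The counting of strand is not given in the sources used here, and genes on the other strand overlap 65.6% of the annotated exon sequence of LPCAT3, 40.5% of DUSP6, 37.1% of CCNE2, 36.1% of SELENOP, 34.9% of SERPINB3, 27.0% of ZBED5-AS1, 26.5% of IER3 and 24.4% of VIM (GENCODE 29). The difference also ran with gene length and base composition, since in 5 equal groups of genes by exon length the median was 0.13 over the shortest and -0.08 over the longest, and by GC content -0.07 over the lowest and 0.07 over the highest. Their part in single results was not tested.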

How the data were processed

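For the 20 libraries, the authors deposited estimated counts per gene, rounded to whole numbers, and normalized values, a score on the scale of counts. Libraries were made with the Lexogen Corall mRNA protocol, and the submitters' processing notes name hg38 and DESeq2. The aligner, the annotation, the use of strand and the handling of molecular identifiers are not given in the sources used here, so counts may hold PCR duplicates. The authors' own fold changes and p-values in the deposited tables were not used.

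The analysis used R 4.3.3 with edgeR 4.0.16. The filter filterByExpr kept 16522 of 60271 genes, and TMM set the scaling. One model with 5 group means was fitted to all 20 libraries, and the contrast was 48 h minus the mean of 24 h and 72 h on the log2 scale (prior count 0.125). Genes were called at an adjusted p under 0.05. For a dip or peak, the larger p of the 2 pairwise tests was adjusted over all genes. SE is the log2 difference divided by the square root of F. Totals of 15611961 to 25856953 counts leave genes under 1 CPM with few counts, and intervals and floors of counting error are not given. Replicates differed by 3.78 to 65.4 times the sampling noise over 30 pairs, so the counts of none repeat those of another within that noise. This spread cannot tell separate cultures from technical differences. Procedures were tested on simulated data with 198 changed genes among 16029, of which 164 were called, along with 6 unchanged genes, and 152 changed genes called as dip or peak, and 1 unchanged.

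The comparison, the 31 lists and the rule for named genes were chosen with earlier results of these data known. Named are the 12 largest dips and peaks with at least 5 CPM and no overlap, the 6 largest on each side outside all other libraries, up to 3 members per list and direction with at least 1 CPM, and members of the 3 EGF signaling lists. Some genes that this rule names are not reported here. Alternatives were other scalings and filters, DESeq2 1.42.0, the 12 libraries alone, a replicate block, glmTreat and leaving out each library. Gene positions came from GENCODE 29, which held 98.5% of the genes tested, and promoter windows from RefSeq (GRCh38.p14).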

Additional observations from a re-analysis of the deposited data

Results flagged for a closer look

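Among 333 sets of 4 libraries at 24, 48 or 72 h, 16 had 1 library far from the other 3 by Dixon's gap test, which is 4.80%, and chance gives about 1 in 20. In 7 of them the library was EGF 24 h replicate 1. There DDC was at 3.16 CPM against 1.73 to 1.86 CPM in the others, METTL7A at 3.26 CPM against 0.83 to 0.98 CPM, MUC15 at 78.5 CPM against 43.5 to 47.2 CPM, RERG at 16.4 CPM against 10.4 to 10.8 CPM and SELENOP at 6.23 CPM against 3.22 to 3.72 CPM. FOSB at 3.31 CPM and SH2D1B at 4.45 CPM were low there, against 4.35 to 4.54 CPM and 7.18 to 7.40 CPM. In each of these 7 genes the value lay on the side of the 48 h libraries.

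EGF 72 h replicate 1 was apart in CDKN1A at 562 CPM against 431 to 452 CPM, EGR1 at 52.2 CPM against 36.9 to 39.0 CPM, FOSL1 at 119 CPM against 82.9 to 88.3 CPM and KRT19 at 455 CPM against 405 to 413 CPM. It also had 24136 genes with at least 1 count against 22675 to 22822. The other sets were BFSP1 in EGF 48 h replicate 2 (29.9 CPM against 25.7 to 26.3 CPM), HSD17B2 in EGF 48 h replicate 3 (15.7 CPM against 13.5 to 13.6 CPM), CCNE2 in EGF 72 h replicate 2 (87.4 CPM against 75.5 to 77.0 CPM) and ZBED5-AS1 in EGF 72 h replicate 4 (12.6 CPM against 11.0 to 11.3 CPM).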

How the results depend on the processing

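Scaling by library size alone gave 2135 genes lower than the mean of the neighbours, 2456 peaks, 790 dips and 41 dips below all other libraries. With factors per gene from the deposited normalized values, in the 11956 genes whose count was 20 or more in all libraries, 1944 genes were higher and 2393 lower, with 670 peaks, 846 dips, and 78 and 66 genes above and below all others. TMM on those genes gave 3009 and 2967, 1274 and 1206, and 197 and 84. Against a 1.5-fold change (glmTreat), 614 were higher and 397 lower. The 6 counts stayed within 1.5 times under DESeq2's Wald test (3688 higher, 3766 lower, 1362 peaks, 1529 dips), DESeq2's size factors, upper quartiles, no mitochondrial genes, the looser and the stricter filter and, for the 4 counts it gives, the 12 libraries alone. Shares of higher calls were 60.5% with upper quartiles and 49.7% with DESeq2's size factors. The replicate block gave 3997 higher and 3770 lower genes, 1588 peaks and 1500 dips, where same-numbered samples share only a number, with correlations of their deviations from -0.24 to 0.16 over 12 pairs. Leaving out each library in turn gave 3463 to 4093 higher and 3148 to 3820 lower genes, 1215 to 1655 peaks, 1128 to 1507 dips, and 206 to 305 and 84 to 153 genes above and below all others. The difference in library measures between 48 h and its neighbours then ran from -230570 to 2293380 in total counts, reversed without EGF 48 h replicate 3, from 604 to 961 in genes detected, past the threshold without EGF 72 h replicate 1, from -2.73 to -0.58 percentage points in the 50 genes with most counts, past it without EGF 48 h replicate 2, from -2.64 to -0.30 in mitochondrial genes and from 0.17 to 0.22 in lncRNA genes. The causes were not tested. Of 6593 alternative values for the 202 genes of the naming rule, 6470 kept direction and side of the threshold, 98 lost the call, 11 gained it and 14 changed sign. For the 106 of these genes followed in the text, 15 of 3442 values lost the call, in EGR1, MYC, ESR1, GRHL2 and NDRG1. Neither total includes glmTreat, under which far fewer genes were called. Both include a prior count of 2, which left the counts of calls as they were. Signs changed with library size alone for the list medians of DNA replication genes (0.0173) and proteasome subunits (0.0103) and for DUSP10 (0.0253), SOCS3 (0.0467), FOSL2 (0.0371) and BTC (0.0835, and 0.0111 with upper quartiles), none called. They changed for p53 targets with factors per gene (-0.15) and with TMM on the same genes (-0.0140), and for EPB41L4A-AS1 (-0.31) and SPRED1 (0.14) with factors per gene. On leaving out a library, the uncalled JUND (range -0.11 to 0.0814), NRG2 (-0.0386 to 0.371), SPRED3 (-0.0106 to 0.22) and BTC (-0.11 to 0.0354) also turned. The rule of at least 20 counts with TMM and the lncRNA and 50-gene shares were added after seeing the data.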

Other observations

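Lists of chaperones and of ribosome assembly held more lower than higher genes against the mean of the neighbours. Most of the lower genes did not dip. Over all genes tested, 21.8% were lower and 23.7% higher. Of 21 heat shock proteins and cochaperones, 13 were lower and 3 higher, with 3 dips and 2 peaks. The list's median against the control was 0.36 at 24 h, -0.11 at 48 h and -0.07 at 72 h. CHORDC1, a partner of HSP90, was at 37.5, 30.7, 45.3 and 44.0 CPM at 48 h and at 49.2 CPM or more in all other libraries, and HSPH1, a large heat shock protein, fell by 0.79 (SE 0.092). Of 30 ribosome biogenesis genes 17 were lower, 6 of them dips, and 0 higher. None was higher at an unadjusted p under 0.05 in edgeR or by DESeq2. Their median against the control was 0.098 at 24 h, -0.28 at 48 h and -0.14 at 72 h. DDX21, a nucleolar helicase, fell from 227 CPM ± 23.8 at 24 h and 171 CPM ± 9.62 at 72 h to 129 CPM ± 13.2 at 48 h. Of 50 cytosolic ribosomal proteins 7 (14%) were higher, a smaller share than over all genes, and 0 lower. At an unadjusted p under 0.05 in edgeR 1 was lower, and 1 was lower by DESeq2. Of 13 mitochondrially encoded genes 0 were called in edgeR, with 0 at an unadjusted p under 0.05 and 0 by DESeq2. Among 30 proteasome subunits 11 were lower and 1 higher, with 1 dip and 1 peak. Their median against the control was 0.14 at 24 h, -0.14 at 48 h and -0.15 at 72 h. Among 28 mitochondrial ribosomal proteins 5 (17.9%) were lower and 7 (25%) higher. Of 22 genes of the unfolded protein response 12 were lower and 2 higher, with 4 dips. HSPA5, the chaperone BiP, was lower only against 72 h, with means of 312 CPM ± 14.1, 340 CPM ± 27.1 and 794 CPM at the 3 times. Of 23 ATF4 targets 6 (26.1%) were higher and 7 (30.4%) lower.

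Metabolic genes were divided by pathway. Of 28 hypoxia and glycolysis genes 14 were lower and 2 higher. HK2, the inducible hexokinase, was at 44.6, 46.9, 55.0 and 53.2 CPM at 24 h, 31.7, 31.5, 35.8 and 33.9 CPM at 48 h, and 78.9, 80.9, 74.7 and 67.6 CPM at 72 h. ENO2, a neuronal enolase, fell by 1.18 (SE 0.13) and the stress-induced gene NDRG1 by 1.15 (SE 0.12). With factors per gene the difference of NDRG1 was -1.02 and the call was lost (adjusted p = 0.0972, edgeR). Of 38 nuclear genes of the respiratory chain 16 were higher and 1 lower, with NDUFB10, a subunit of complex I, up by 0.50 (SE 0.051). Of 21 NRF2 targets 9 were higher and 2 lower, with NQO1, a quinone reductase, at 165 CPM ± 13.7, 350 CPM ± 27.2 and 258 CPM ± 18.3 at 24, 48 and 72 h, and AKR1B10 up by 0.93 (SE 0.079). Of 25 lysosome genes 9 were higher and 2 lower. The protease CTSB was among the lower ones, by 0.68 (SE 0.052).

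Of 32 interferon-stimulated genes 5 (15.6%) were higher and 9 (28.1%) lower, beside 23.7% and 21.8% over all genes tested. MX2 peaked, with a rise of 1.45 (SE 0.22), while OAS1 fell by 0.82 (SE 0.069). ISG20 dipped to 2.32 to 3.63 CPM at 48 h from 5.77 to 8.31 CPM at 24 h and 6.13 to 7.09 CPM at 72 h, and IFIT1 was at 0.38 to 0.57 CPM at 24 h, 3.38 to 3.86 CPM at 48 h and 2.96 to 4.12 CPM at 72 h. Among 18 circadian clock genes 5 (27.8%) were higher and 4 (22.2%) lower, near the shares over all genes. The clock activators NPAS2 and RORA dipped, by 0.97 (SE 0.069) and 1.31 (SE 0.21), and DBP, a clock output gene, was at 13.6, 19.3, 14.1 and 15.3 CPM at 48 h, above all 16 other libraries. Of 17 nuclear-retained noncoding RNAs 4 (23.5%) were higher and 3 (17.6%) lower, also near those shares.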
